A study of Mus musculus with 12 samples.

Results

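Tff3 and 7 genes of bile duct epithelium were followed through the livers of mice that carry the ARE-Del allele. Tff3 encodes a secreted trefoil peptide, a small protein of mucus that protects and repairs epithelium. Tff3 was chosen because it stood out in these data, with far higher values in ARE-Del than in wild-type (WT) livers. The other 7 genes were chosen by name. They are Sox9, Krt7, Krt19, Krt8, Krt18, Epcam (listed under its older symbol Tacstd1) and Spp1. All 8 members were found among the 19852 genes of the deposited table.

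The series measured liver RNA by sequencing in 12 libraries from C57BL/6 mice aged 20 weeks. They form 4 groups of 3: female WT, female ARE-Del, male WT and male ARE-Del, the WT mice being control littermates. ARE-Del mice lack an AU-rich element of the interferon-gamma gene Ifng that makes its transcript short-lived, and here they stand for long-lasting interferon-gamma expression. The deletion is in the germ line and is not limited to 1 cell type, and the protocol text writes it as ARE-Del-/-. Apart from n = 3, nothing in the labels ties each library to its own mouse, so p-values measure the spread between these libraries, which may be technical.

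Cholangiocytes line the bile ducts and are a small share of liver cells. Sox9 is the transcription factor that marks their lineage, and it also appears in hepatocytes that take on duct-like features. Krt7 and Krt19 are the keratins of ducts, whereas Krt8 and Krt18 are the keratin pair of hepatocytes and ducts alike. Epcam is an adhesion protein on the surface of duct and progenitor cells. Spp1 encodes osteopontin, a secreted protein made by ducts and also by macrophages. In a whole-liver sample, fewer cells of a type and less RNA per cell cannot be told apart.

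Values are RPKM, reads scaled to transcript length and library size. Summed RPKM ran from 173476 to 208647 per library, and libraries of 1 group correlated across genes at r = 0.988 to 0.994. Depth relative to female WT 1 was 0.909 to 1.45. Ifng itself, the check of the allele, was at most 0.0382 RPKM (5 reads) in any WT library and between 0.0742 and 0.238 RPKM in the 6 ARE-Del libraries. The library labelled female ARE-Del 2 had 0.0456 RPKM of Xist, which the other 5 female libraries had at 33.0 to 45.6. The female changes of Tff3 and of the tested members are therefore given without it as well. Comparisons of females with males in ARE-Del, the ratio of Krt8 to Krt18, the gene lists and the correlations include it unless stated.

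Where the low values of a gene fall on steps, the step gives the reads behind its RPKM. No such step was found for Tff1. For Tff3, Sox9, Krt19 and Epcam all values of up to 150 reads were whole within 0.06 reads. For Krt7, 11 of 12 values were whole and the value of female WT 1 came to 15.2 reads. These reads show how thin the base of the duct-restricted genes was. Krt7 rested on 8 to 21 reads per library, Krt19 on 7 to 39 and Epcam on 15 to 38.

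Tff3 is described first, with no test, because its level was what chose it. It was listed at 0 in all 3 female WT libraries. No read was seen there, which allows up to 3 reads, or 0.25, 0.264 and 0.23 RPKM in replicates 1, 2 and 3. In female ARE-Del it was 6.43, 16 and 5.65 RPKM, from 112, 222 and 77 reads. Every female ARE-Del library was above the limit of every female WT library. The female ARE-Del mean of 9.35 ± 5.76 RPKM (SD, n = 3) was at least 37.7-fold higher than the mean of the 3-read limits in female WT. Library 2, which lacks Xist, had the highest value, and libraries 1 and 3 alone were at least 25.9-fold and 22.8-fold higher.

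Male WT livers held a little Tff3, at 0.429, 0.642 and 0.407 RPKM from 7, 7 and 5 reads. Male ARE-Del livers had 50.3, 11.2 and 76.5 RPKM from 706, 160 and 1286 reads. The means were 0.493 ± 0.13 and 46 ± 32.8 RPKM (SD, n = 3), a ratio of 93.3. Replicate 2 was the low one, at 22.8 times the male WT mean, while replicates 1 and 3 were at 102 and 155 times that mean. On the log2(RPKM + 1) scale the fitted difference was 3.24 ± 0.53 in females and 4.61 ± 0.53 in males (SE). With female WT at 0 the pseudocount sets the female value, and with a pseudocount of 0.1 the differences were 6.40 ± 0.57 and 5.91 ± 0.57.

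Without female ARE-Del 2 the female difference was 2.81 ± 0.55.

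The order of the group means was male ARE-Del, female ARE-Del, male WT and female WT. Male ARE-Del 2, at 11.2 RPKM, lay below female ARE-Del 2, at 16, so the ARE-Del groups overlapped. The overlap rests on that library, which lacks Xist, since the other female ARE-Del values, 6.43 and 5.65, lie below all 3 males. Among WT livers all 3 males were above all 3 females, with 19 reads in male WT in all (95% Poisson interval 11.4 to 29.7) and 0 in female WT (up to 3.69, the same interval), which cover counting error only. The difference of the ARE-Del change between the sexes was 1.38 ± 0.75 (SE) on the log2(RPKM + 1) scale, with males higher. It was 2.17 ± 0.43 without male ARE-Del 2, 0.83 ± 0.66 without male ARE-Del 3 and 1.80 ± 0.73 without female ARE-Del 2. With a pseudocount of 0.1 it turned to -0.49 ± 0.80.

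**Figure D1:**
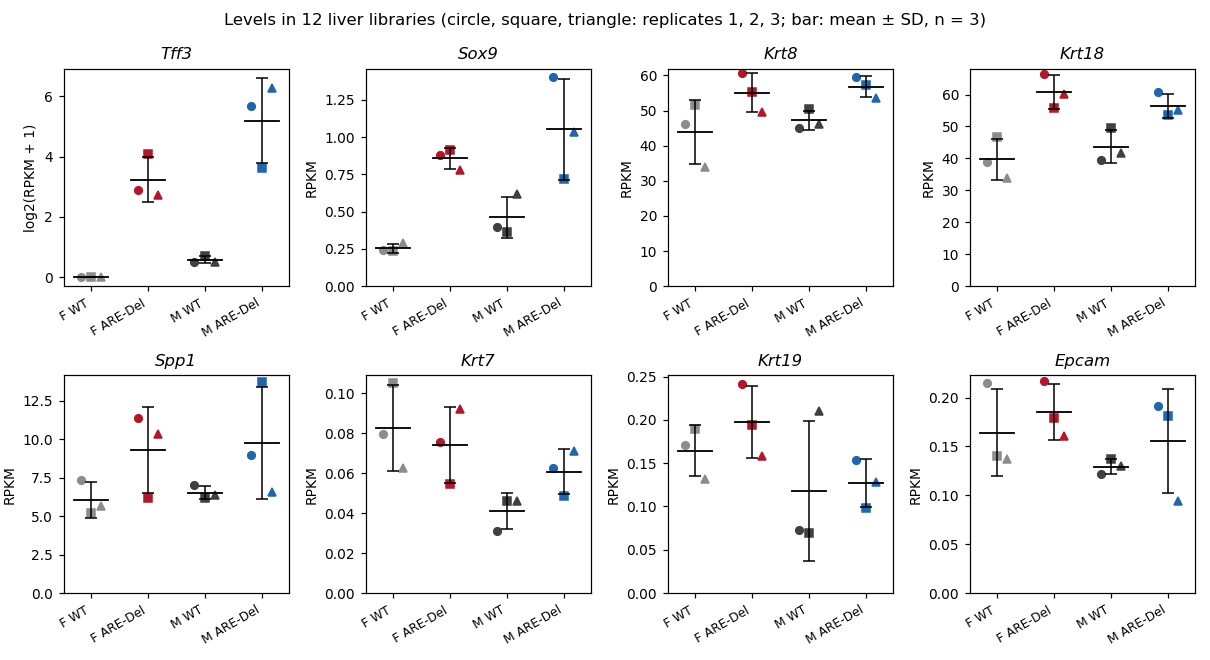
RPKM of each gene in the 12 libraries, or log2(RPKM + 1) for Tff3, by group (F, female; M, male), with symbols for replicates 1, 2 and 3 and bars for the mean ± SD (n = 3). All 6 ARE-Del libraries lie above all 6 WT libraries for Tff3, Sox9 and Krt18, as for 14.5% of tested genes. The genotypes overlap in both sexes for Krt19, Epcam and Spp1 and in females for Krt7 and Krt8.

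Tff3 lies on chromosome 17 beside the other trefoil genes, in the order of the RefSeq annotation of GRCm38.p6. Tff2, the gastric trefoil peptide and its nearest protein-coding neighbour on that side, was at most 0.181 RPKM and rested on 0 to 3 reads per library. Tff1, the next, was at most 0.662 RPKM, with means of 0.158 and 0.296 in female WT and ARE-Del and of 0.223 and 0.255 in male WT and ARE-Del. The reads behind the Tff1 values could not be recovered. Neither Tff2 nor Tff1 passed the filter on low values, and the genotypes overlapped for both genes in each sex. Abcg1, a cholesterol exporter on the other side, had means of 0.943 and 3.48 RPKM in females and 0.619 and 1.75 in males, in WT and ARE-Del in that order.

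Gut and mucus-secreting epithelium is the best known site of Tff3, and most of its markers were near 0. Of 22 genes on that list 14 were found in the table and 12 were below the filter, with none of these 12 above 0.662 RPKM in any library. The intestinal mucin Muc2 was listed at 0 in 8 libraries and reached 0.025 RPKM, the secretory chaperone Agr2 was at 0 in 11 libraries, and the mucus protein Fcgbp reached 0.0346 RPKM. Vil1, the microvillus protein villin, averaged 0.0276 and 0.0849 RPKM in WT and ARE-Del females, which overlapped. In males it averaged 0.0262 and 0.105, without overlap, as 36.1% of tested genes were higher. It reached 0.198 RPKM in male ARE-Del 3, the library with the most Tff3. Of the 2 genes tested, the antibody transporter Pigr, which mouse hepatocytes also make, rose in males from 222 to 350 RPKM (log2 fold change 0.65 ± 0.09, SE, limma adjusted p = 2.8e-04) and did not pass in females (0.22 ± 0.09, limma adjusted p = 0.0839). The lectin Lgals4 did not pass in either sex (-0.01 ± 0.22 and -0.16 ± 0.22). The summed level of the 14 genes was 298 to 322 RPKM in female WT, 344 to 393 in female ARE-Del, 219 to 227 in male WT and 319 to 384 in male ARE-Del, nearly all of it Pigr.

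Sox9, the lineage factor, was low but rose in both sexes. In females it was 0.24, 0.234 and 0.288 RPKM in WT and 0.881, 0.915 and 0.778 in ARE-Del. The female groups did not overlap (34.9% of tested genes were higher in this way), and the reads went from 24 to 34 per library up to 96 to 139. Male livers had 0.4, 0.365 and 0.621 RPKM in WT and 1.4, 0.721 and 1.03 in ARE-Del. Male ARE-Del 2, the library with the least Tff3 of its group, was also the lowest for Sox9, and it still lay above all WT libraries. In males 36.1% of tested genes were higher without overlap. The ratio of means was 3.38 in females and 2.28 in males.

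On the log2(RPKM + 1) scale, which understates the change of a gene this low, Sox9 rose by 0.57 ± 0.10 in females (SE, limma with Benjamini-Hochberg adjustment over 10568 genes, adjusted p = 0.0011). In males it rose by 0.48 ± 0.10 (limma adjusted p = 0.00592). With a pseudocount of 0.1 the changes were 1.44 and 1.02. Sox9 passed the filter of 0.5 RPKM in 3 libraries through the ARE-Del groups, with 1 WT library above 0.5, and so did Tff3, so for both genes passing the filter already favoured a difference. With no filter the call for Sox9 remained in females (limma adjusted p = 0.00517) and in males (0.023). Without female ARE-Del 2 it was 0.55 ± 0.12 in females (limma adjusted p = 0.00526).

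Krt18 and Krt8 form the filament pair of simple epithelium, 1 type I and 1 type II keratin, and both were well expressed. Krt18 was 38.8, 46.6 and 33.8 RPKM in female WT and 66.5, 55.8 and 60.2 in female ARE-Del. The female groups were fully apart (34.9% of tested genes were higher in this way). Male values were 39.6, 49.5 and 41.7 RPKM in WT and 60.8, 53.5 and 55.1 in ARE-Del, again with no overlap (36.1% of tested genes). Krt18 rose by 0.61 ± 0.12 on the log2(RPKM + 1) scale in females (SE, limma adjusted p = 0.00218), and by 0.67 ± 0.14 without female ARE-Del 2 (limma adjusted p = 0.00347). In males it rose by 0.37 ± 0.12 (limma adjusted p = 0.0488), a call at the edge of the threshold. It was lost with median-of-ratios scaling (0.24 ± 0.13, limma adjusted p = 0.236), with quantile normalization (0.25 ± 0.13, 0.191) and in 9 of the 12 fits that leave out 1 library (up to 0.179, without male WT 1). It remained without female WT 2, female WT 3 or male WT 2.

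Krt8 was 46, 51.6 and 33.8 RPKM in female WT and 60.6, 55.2 and 49.5 in female ARE-Del, and female WT 2 lay above female ARE-Del 3. In males it was 45.1, 50.4 and 46.1 RPKM in WT and 59.6, 57.3 and 53.6 in ARE-Del. These did not overlap, as 36.1% of tested genes were higher in males. It did not pass the threshold in females (0.34 ± 0.13, SE, 95% interval 0.05 to 0.63, limma adjusted p = 0.0707) or in males (0.26 ± 0.13, interval -0.03 to 0.55, limma adjusted p = 0.183). Without female WT 2 the female change was 0.47 ± 0.13 and passed (limma adjusted p = 0.0189), and without female WT 3 it was 0.17 ± 0.10 (limma adjusted p = 0.261). Leaving out female ARE-Del 2 gave 0.34 ± 0.15 (limma adjusted p = 0.127). Both keratins have many processed pseudogenes in the genome, so reads may be split between near-identical copies.

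**Figure D2:**
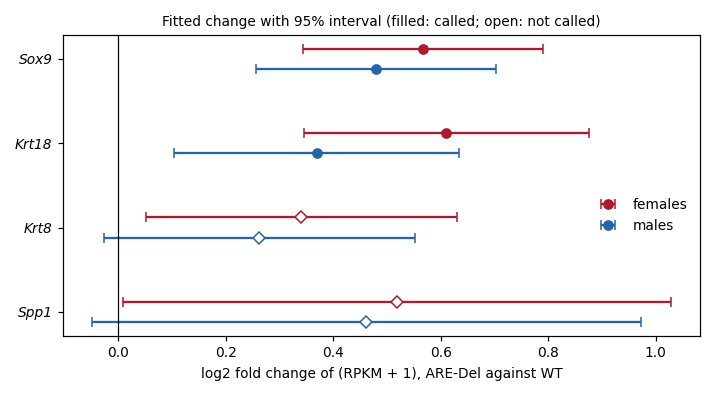
Fitted log2 fold change of (RPKM + 1) in ARE-Del against WT with its 95% interval for the 4 tested genes other than Tff3, in females and males, filled where called and open where not. Sox9 and Krt18 are called in both sexes, and the intervals of males cross 0 for Krt8 and Spp1.

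Because RPKM is per length, the levels of Krt8 and Krt18 can be set side by side. Krt8 over Krt18 was 1.19, 1.11 and 1 in female WT and 0.911, 0.988 and 0.823 in female ARE-Del. Among males the ratio was 1.14, 1.02 and 1.11 in WT and 0.98, 1.07 and 0.972 in ARE-Del. The female groups did not overlap and the male groups did. Over both sexes the log2 ratio was lower by 0.19 in ARE-Del in an exact 2-sided permutation test of genotype within sex, p = 0.015 among 400 arrangements and 0.06 after Benjamini-Hochberg adjustment over 4 such tests. This ratio was chosen after the values were seen, and it does not pass after adjustment.

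**Figure D3:**
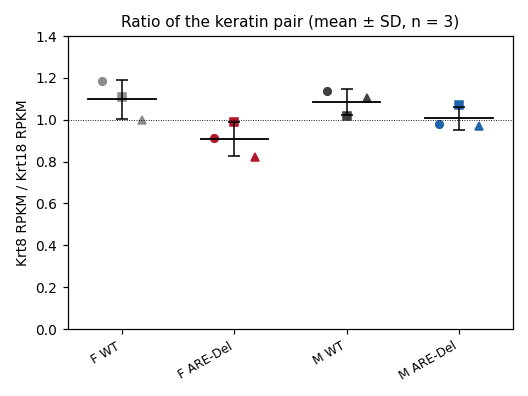
Ratio of Krt8 RPKM to Krt18 RPKM in each library by group, with the mean ± SD (n = 3) and a dotted line at 1. Female WT lies at 1 to 1.19 and female ARE-Del at 0.823 to 0.988, while the male groups overlap.

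Spp1 was 7.36, 5.17 and 5.63 RPKM in female WT and 11.4, 6.15 and 10.3 in female ARE-Del. Male livers had 6.99, 6.21 and 6.37 RPKM in WT and 8.99, 13.7 and 6.55 in ARE-Del. The WT libraries were close together and the ARE-Del libraries spread out, with 1 in each sex still at the WT level. Spp1 did not pass in females (0.52 ± 0.23, SE, 95% interval 0.01 to 1.03, limma adjusted p = 0.114) or in males (0.46 ± 0.23, interval -0.05 to 0.97, limma adjusted p = 0.184). The male change was 0.21 ± 0.21 without male ARE-Del 2. Without female ARE-Del 2, the library that lacks Xist, the female change was 0.76 ± 0.22 and passed (limma adjusted p = 0.0232).

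Among the ARE-Del libraries, Spp1 and Tff3 did not go together. Female ARE-Del 2 had the most Tff3 and the least Spp1 of its group. In male ARE-Del the order of the 3 libraries by Tff3 (76.5, 50.3 and 11.2 RPKM) was the reverse of that by Spp1 (6.55, 8.99 and 13.7 RPKM). Male ARE-Del 2, with the least Tff3 of its group, had the highest Spp1 of all 12 libraries.

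**Figure D4:**
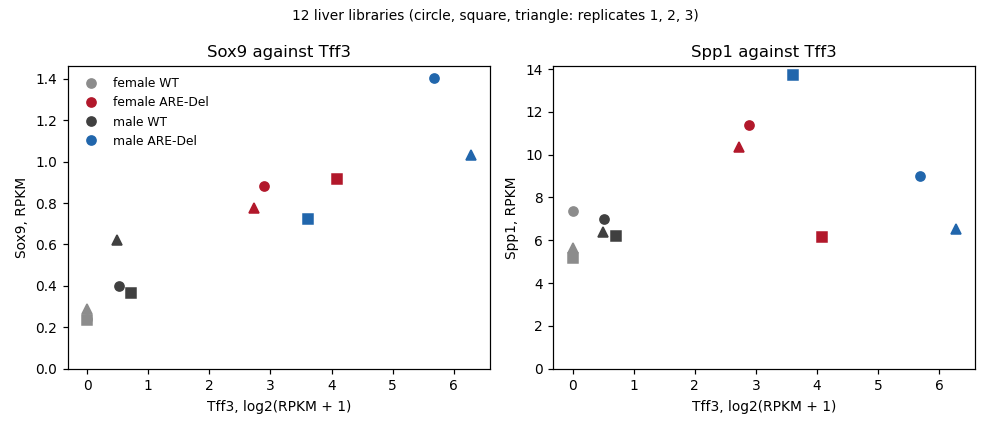
RPKM of Sox9 (left) and Spp1 (right) against Tff3 on the log2(RPKM + 1) scale in the 12 libraries, coloured by group with symbols for replicates 1, 2 and 3. Sox9 is low where Tff3 is at or near 0 and high elsewhere, whereas the 2 libraries with the most Tff3 have 6.55 and 8.99 RPKM of Spp1.

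Spp1 is also made by macrophages, and markers of macrophages moved with the genotype. Of the 8 tested markers, 7 rose in females and 8 in males, with median log2 fold changes of 1.85 and 1.28. Among all tested genes 25.8% and 19.5% were called higher, with medians of 0.09 and 0.10. The tested marker Itgax was below 0.5 RPKM in every WT library, so passing the filter already favoured a difference. The summed level of 11 macrophage markers was 48.9 to 77 RPKM in female WT and 226 to 251 in female ARE-Del. Male WT had 33.1 to 57.5 and male ARE-Del 146 to 176. No marker was at 0 in all libraries. The pore-forming Mpeg1 rose by 2.85 ± 0.20 in females and 2.84 ± 0.20 in males, and the growth factor receptor Csf1r by 1.97 ± 0.21 and 1.71 ± 0.21 (SE; limma adjusted p between 7.7e-07 and 1.2e-04). Their part in the Spp1 values was not tested.

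Receptors of osteopontin, the product of Spp1, were followed as well. Of 10 entries 9 were tested, and 7 rose in females and 5 in males (25.8% and 19.5% of all tested genes were called higher), with medians of 0.35 and 0.30 against 0.09 and 0.10 over all tested genes. Cd44, the hyaluronan receptor, rose by 1.14 ± 0.10 in females and 0.72 ± 0.10 in males (SE, limma adjusted p = 2.4e-06 and 2.4e-04). The integrin chains Itga9 (0.86 ± 0.15 and 0.66 ± 0.15) and Itga4 (0.57 ± 0.05 and 0.30 ± 0.05) also rose in both sexes, with limma adjusted p between 5.5e-06 and 0.00963. Itga4 and the called receptor gene Itgb3 were below 0.5 RPKM in every WT library, so passing the filter already favoured a difference for both. Both Cd44 and Itga4 are common on leukocytes, and the macrophage markers moved with them, whose part in these rises was not tested. With quantile normalization the receptors had 4 calls in females and 3 in males.

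The keratins and adhesion protein restricted to ducts and progenitor cells were all below the filter. Krt7 was 0.0796, 0.105 and 0.0627 RPKM in female WT and 0.0757, 0.0543 and 0.0922 in female ARE-Del. Male values were 0.0308, 0.0461 and 0.0461 RPKM in WT and 0.0627, 0.0485 and 0.071 in ARE-Del. The female groups overlapped and the male groups did not, as 36.1% of tested genes were higher in males. The male libraries differed by few reads of Krt7, 8 to 9 against 11 to 19. Permuting genotype inside each sex, an exact 2-sided test gave p = 0.545 for Krt7 (mean difference 0.01 on the log2(RPKM + 1) scale, 400 arrangements, smallest possible p 0.005).

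Krt19 was 0.171, 0.19 and 0.132 RPKM in female WT and 0.241, 0.194 and 0.158 in female ARE-Del. Male livers had 0.0727, 0.0692 and 0.211 RPKM in WT and 0.154, 0.0983 and 0.128 in ARE-Del. Male WT 3, with 24 reads, was above all 3 male ARE-Del libraries. The exact permutation test gave p = 0.46 for Krt19 (0.03 on the log2(RPKM + 1) scale).

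Epcam was 0.215, 0.14 and 0.137 RPKM in female WT and 0.217, 0.179 and 0.16 in female ARE-Del. In males it was 0.122, 0.137 and 0.13 RPKM in WT and 0.191, 0.181 and 0.0945 in ARE-Del. The lowest and the highest of the 12 values both came from ARE-Del livers. The exact permutation test gave p = 0.275 for Epcam (0.03 on the log2(RPKM + 1) scale). With so few reads, these tests do not show that Krt7, Krt19 or Epcam were alike in the genotypes.

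In count, 5 of the 8 members passed the filter of 0.5 RPKM in 3 libraries, and 4 of these could be tested, leaving out Tff3. Of the 4, 2 rose in females (Sox9 and Krt18), where 31.3% of all tested genes were called, 25.8% higher and 5.53% lower. The same 2 rose in males, where 21.5% of tested genes were called, 19.5% higher and 2.04% lower. All 6 ARE-Del libraries were above all 6 WT libraries for Tff3, Sox9 and Krt18, a pattern that 14.5% of tested genes showed. Calls were common among all genes, so the count of 2 in 4 is not a result about the members as a group.

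No tested member passed the test of a difference between the sexes in its response. The difference of the genotype change, males minus females, was -0.09 (95% interval -0.40 to 0.23) for Sox9, -0.24 (-0.62 to 0.13) for Krt18, -0.08 (-0.49 to 0.33) for Krt8 and -0.06 (-0.78 to 0.66) for Spp1. Limma adjusted p was 0.701 to 0.978, and 0.568% of all tested genes passed. Each of these 4 intervals is wider than the gene's change in either sex. Females against males gave no call either, in WT (9.76% of tested genes called) or in ARE-Del (22.4% called). Sox9 in WT came nearest, lower in all 3 females than in all 3 males (-0.22 ± 0.10, SE, limma adjusted p = 0.207), as 9.58% of tested genes were. Below the filter, Krt7 and Epcam were higher in all 3 female than in all 3 male WT libraries (18.9% of tested genes), and Krt19 was so in ARE-Del (26.7% of tested genes). These were not tested.

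Other genes of ducts and liver progenitors were a mixed group. Of 22 such genes 8 passed the filter, and 3 of these rose in females and 2 in males. Among all tested genes 25.8% and 19.5% were called higher. The list medians were 0.08 and 0.12, against 0.09 and 0.10 for all tested genes. Tm4sf4, a membrane protein of liver and gut, rose from 33.6 to 46 RPKM in females (0.45 ± 0.11) and from 22.5 to 30.3 in males (0.41 ± 0.11). The surface glycoprotein Cd24a rose from 0.361 to 0.742 RPKM (0.36 ± 0.09) and from 0.323 to 0.635 (0.30 ± 0.09). Limma adjusted p was 0.009 to 0.0339 for these 2 genes. Cd24a was below 0.5 RPKM in every WT library, so passing the filter already favoured a difference.

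With median-of-ratios scaling the duct list had 0 calls in males, and with quantile normalization it had 1 call in females and 0 in males, with medians of -0.08 and -0.03.

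The water channel Aqp1, also a gene of blood vessels, did not pass in either sex (-0.48 ± 0.30 and -0.09 ± 0.30). Of the 14 genes below the filter, 13 stayed under 1 RPKM in every library. They included defining genes of cholangiocytes, the chloride channel Cftr at 0.00455 to 0.0422 RPKM and the secretin receptor Sctr at 0 to 0.0251 RPKM. Cftr and Sctr, picked after their values were seen, were thus close to 0 in both genotypes, like Krt7 and Krt19. Other genes of the list were not, such as Tm4sf4 and Aqp1, with means of 33.1 and 22 RPKM over the 12 libraries. Elf3, below the filter too, was 0.197 to 0.466 RPKM in ARE-Del and 0.0618 to 0.179 in WT libraries. Of tested genes 14.5% had all 6 ARE-Del above all 6 WT libraries. Ehf was higher without overlap in females (34.9% of tested genes) and overlapped in males. Krt23, Sctr and Anxa13 were lower in female ARE-Del. These genes were picked after their values were seen and were not tested.

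Notch and Hippo signalling act in bile duct formation, and Sox9 lies downstream of both. Of 21 genes 14 were tested, and 4 rose in females and 1 in males, against 25.8% and 19.5% of all tested genes. Notch1 rose in females (0.42 ± 0.08) and not in males (0.23 ± 0.08, limma adjusted p = 0.0734), and Notch2 rose in both (0.22 ± 0.06 and 0.20 ± 0.06). The Hippo coactivator gene Wwtr1 rose in females (0.33 ± 0.08) and was at -0.01 ± 0.08 in males. Ctgf, a Hippo target, rose in females (0.85 ± 0.30, limma adjusted p = 0.0486) and did not pass in males (0.76 ± 0.30, 0.0921). Its female groups overlapped, with female WT 2 at 1.49 RPKM and female ARE-Del 1 at 0.986. For the other Hippo targets of the list, Cyr61, Amotl2 and Ankrd1, the genotypes overlapped in both sexes. Cyr61 and Amotl2 were not called, and Ankrd1 was below the filter. None of the 14 passed the test of a difference between the sexes. The list medians were 0.14 and 0.12, against 0.09 and 0.10 for all genes. Under either other scaling the list had 2 rises in females and 0 in males, and quantile normalization added 2 falls in females.

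Partners of the keratins gave 3 rises among 9 tested genes in each sex, against 25.8% of all tested genes in females and 19.5% in males. Vim, the intermediate filament gene of mesenchyme and leukocytes, rose by 1.60 ± 0.13 in females and 1.14 ± 0.13 in males. Cdh1, the epithelial cadherin, rose by 0.90 ± 0.12 and 0.56 ± 0.12, and Plec1, which links filaments to junctions, by 0.43 ± 0.05 and 0.31 ± 0.05. The desmosomal cadherin Dsg2 did not pass (0.03 ± 0.10 and 0.12 ± 0.10). The 3 genes called had limma adjusted p between 1.6e-06 and 0.00707. The list medians were 0.03 in females, which turned to -0.08 with median-of-ratios scaling, and 0.21 in males, which fell to 0.11 with that scaling and to 0.05 with quantile normalization.

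Mesenchymal cells beside the ducts and hepatocytes were followed as well. Of 8 tested stellate cell and myofibroblast markers 5 rose in females and 2 in males (medians 0.51 and 0.23). Among all tested genes 25.8% and 19.5% were called higher, with medians of 0.09 and 0.10. Thy1, a marker of portal fibroblasts and T cells, rose in both sexes (0.78 ± 0.10 and 0.34 ± 0.10). The collagen Col3a1 rose in females and did not pass in males (0.82 ± 0.19 and 0.56 ± 0.19). Col1a1, called in females, was below 0.5 RPKM in every WT library and Thy1 in all but 1. For both, passing the filter already favoured a difference. The summed level of the 10 markers found was 9.67 to 12.4 RPKM in female WT and 13.3 to 19 in female ARE-Del. In males it was 5.68 to 9.29 in WT and 7.87 to 13.3 in ARE-Del. Hepatocyte markers gave 1 rise and 1 fall among 10 in females and 4 rises in males (medians -0.08 and 0.35). Of all tested genes 5.53% were called lower in females and 2.04% in males. The apolipoprotein gene Apoa1 rose in both sexes (0.82 ± 0.14 and 0.57 ± 0.14, limma adjusted p = 8.9e-04 and 0.0141). The ethanol-oxidising cytochrome Cyp2e1 fell in females (-0.81 ± 0.15) and did not pass in males (-0.22 ± 0.15). The gluconeogenic enzyme Pck1 rose in males (1.44 ± 0.21) and did not pass in females (0.59 ± 0.21). With median-of-ratios scaling the list had 1 rise and 3 falls in females and 2 rises and 1 fall in males. Hepatocytes hold Krt8 and Krt18, and the part of these shifts in the keratin values was not tested. With quantile normalization the stellate list had 3 calls in females and 0 in males. Of 4 pancreatic acinar markers found, Ela1 fell in both sexes (-0.88 ± 0.10 and -0.76 ± 0.10), and the other 3 were at most 0.0363 RPKM.

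**Figure D5:**
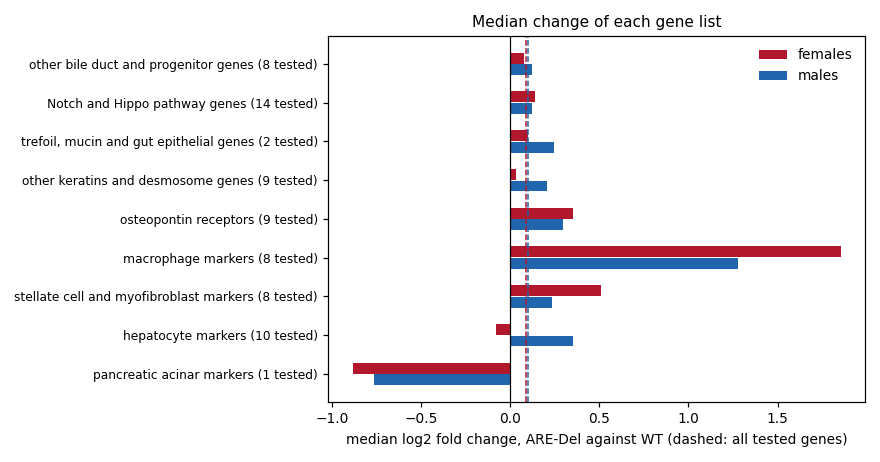
Median log2 fold change of (RPKM + 1) in ARE-Del against WT for each gene list, in females and males, with the number of tested genes and dashed lines at the median of all tested genes. The macrophage markers stand at 1.85 and 1.28, while the other bile duct genes stand at 0.08 and 0.12, beside the dashed lines at 0.09 and 0.10.

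Genes whose pattern was most like that of Tff3 were ranked by Pearson correlation of log2(RPKM + 1) over the 12 libraries, among 8580 tested genes with plain symbols. The first 6 were the adrenergic receptor gene Adrb3 (r = 0.946), Fbxo4 (0.941), the aldolase Aldoc (0.933), the transcription factor Mnt (0.93), the serpin Serpinb6b (0.925) and Sox9 (0.923). The 12 libraries share their genotype and sex groups. Tff3 was chosen for its genotype difference, and Adrb3 and Sox9 passed the filter through the ARE-Del groups. The places of Adrb3, the first gene, and of Sox9, at rank 6, therefore describe a shared genotype difference. Krt18 followed at rank 304 (r = 0.752), Krt8 at 871 (0.668) and Spp1 at 3347 (0.413).

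Adrb3 averaged 0.178, 0.564, 0.388 and 0.801 RPKM in female WT, female ARE-Del, male WT and male ARE-Del. Like Tff3 it was higher in male than in female WT livers. Serpinb6b averaged 0.387, 1.82, 0.961 and 2.35 RPKM in the same groups, the same order of groups as Tff3. By rank correlation 3 of the first 6 genes were also among the first 6.

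Within the groups, with each group mean taken away, the nearest genes were Pstpip1 (r = 0.943), Pycard (0.912), Adrb3 (0.9), Dusp2 (0.887), Lsm8 (0.884) and Hrg (0.87). Pstpip1, Adrb3 and Dusp2 were below 0.5 RPKM in every WT library. They passed the filter through the ARE-Del groups, as Tff3 did, and so did Pycard, at most 0.502 RPKM in WT. Pstpip1 and Pycard encode adaptor proteins of leukocytes, Pycard being the inflammasome adaptor. In male ARE-Del, Pstpip1 was 0.381, 0.209 and 0.465 RPKM, lowest in replicate 2 as Tff3 was. None of the first 6 remained among the first 6 by rank correlation. Sox9 stood at r = 0.598, rank 163, and Spp1 at -0.889 on this measure. Tff3 was 0 in female WT and 0.407 to 0.642 RPKM in male WT. These correlations within groups therefore rest almost wholly on the 6 ARE-Del libraries, including female ARE-Del 2, which lacks Xist.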

How the data were processed

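The deposited table gives RPKM values that the authors made, per the submitters' processing notes, with Trimmomatic 0.30, TopHat2 2.0.8, the mm9 assembly, and Partek and GenomeStudio 6.6. The sources used here do not give how reads were counted, on which strand, or their totals. Genes with at least 0.5 RPKM in at least 3 libraries (10568) were fitted on log2(RPKM + 1) by limma 3.58.1 (R 4.3.3), each of the 4 groups having its own mean, with trended variances and Benjamini-Hochberg adjustment at 0.05. A gene can pass through 1 group alone. Fold changes on this scale are understated for low genes. Relative depth is the commonest ratio of values under 0.2 RPKM to those of female WT 1 (tolerance 0.02 log2), held by 11.5% to 15.2% of such genes. Reads are the largest step that made all but at most 1 value whole. Intervals are at 95%. Members below the filter were tested by exact permutation with Python 3.11.15. The members and lists were chosen with earlier results of these data known. Of 136 list entries 117 matched and 69 were tested. Named are all members, Ifng, up to 4 genes a list (called genes with the largest change, then the highest level) and the genes most like Tff3. Named after their values were seen were Abcg1, Muc2, Agr2, Fcgbp, Vil1, Cftr, Sctr, Elf3, Ehf, Anxa13, Cyr61, Amotl2, Ankrd1, Tff2, Xist, Prom1, Krt23, Krt80 and Itgax. The fit was also run on simulated data of independent normal values, a simpler setting than these data, and no result here rests on it. A gene of the duct list and the promoter sequences are not reported here.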

Additional observations from a re-analysis of the deposited data

How the results depend on the processing

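Sox9 was called in both sexes in all 19 alternatives, and Krt18 in females in all 19. The count of tested members called in males was 2 and became 1, Sox9 alone, with no filter on low values, a filter on the mean, median-of-ratios scaling, quantile normalization and a replicate block (1 in each), and it ran from 1 to 2 over the fits without 1 library. Krt18 was the call lost in those 5 settings (limma adjusted p 0.0501 to 0.236). The replicate numbers did not pair the libraries (correlations of same-numbered deviations -0.171 to 0.175 in the 6 pairs), so the block shares only a number. With it Krt8 passed in females (limma adjusted p = 0.0419). Fitted on males alone, Krt8 passed there (limma adjusted p = 0.0458), which made 3 calls.

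The direction of small differences between the sexes turned in single fits without 1 library. For the difference of the genotype change the range was -0.21 to 0.0325 for Sox9, -0.20 to 0.0941 for Krt8 and -0.31 to 0.17 for Spp1. For females against males it was -0.25 to 0.0471 in WT and -0.12 to 0.0259 in ARE-Del for Krt8, and -0.27 to 0.21 in ARE-Del for Spp1. For Tff3 the difference of the change was -0.49 with a pseudocount of 0.1. Scaling moved the median of all genes in females from 0.09 to -0.07 under quantile normalization, where Sox9 stood at 0.38 and Krt18 at 0.55. The share of calls that were higher fell from 82.3% to 58.9% in females and from 90.5% to 63.7% in males under median-of-ratios scaling, and to 39.3% and 44.5% under quantile normalization, where most calls were lower. Depth limits Krt7, Krt19 and Epcam, at 7 to 39 reads a library, and Tff3 in WT, at 0 to 7.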

Other observations

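Prom1, 1 of the 8 tested duct and progenitor genes, which encodes the surface protein prominin, differed by sex, and its genotype difference did not pass. Female WT livers had 0.862, 2.06 and 0.431 RPKM and female ARE-Del livers 1.14, 0.904 and 0.771, against 0.0675 to 0.136 in the 6 male libraries. Every female library lay above every male library. Females against males gave 0.85 ± 0.20 in WT and 0.82 ± 0.20 in ARE-Del (SE, limma adjusted p = 0.0174 and 0.0106). Prom1 was named after its values were seen, and it passed the filter through the female libraries, which favoured a difference. The genotype gave -0.06 ± 0.20 in females and -0.03 ± 0.20 in males.

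Tm4sf4 was also higher in females than in males, by 0.55 ± 0.11 in WT and 0.59 ± 0.11 in ARE-Del (SE, limma adjusted p = 0.00906 and 0.00285). Its rise with the genotype came on top of this difference in both sexes. In males that rise was not called with median-of-ratios scaling or quantile normalization, where the duct list had 0 calls.

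The keratin Krt80, below the filter, averaged 0.0205 and 0.26 RPKM in WT and ARE-Del females, and 0.0217 and 0.0721 in the male groups. Its ARE-Del libraries lay above the WT libraries in each sex, as did those of 34.9% of tested genes in females and 36.1% in males. The highest value, 0.513 RPKM, came from female ARE-Del 2, the female library without Xist and the one with the most Tff3 of its group. The keratin Krt23 averaged 0.333 and 0.133 RPKM in WT and ARE-Del females, and its genotypes overlapped in males (0.723 and 0.234), where male WT 3 reached 1.22 RPKM. No test was run on either gene.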
